A study of Mus musculus with 6 samples.

Results

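Small nucleolar RNAs and Cajal body RNAs were examined in 6 mouse cells from 3 mice. The deposited table held 129 rows whose symbol starts with Snora, Snord or Scarna and a digit, and none of these symbols was listed more than once. Members were the 18 of these rows that reached 1 FPKM (fragments per length of gene and per depth of the library) in at least 1 cell. The members were 13 of 39 Snora rows, 3 of 81 Snord rows and 2 of 9 Scarna rows, out of 45038 rows in the table. The other 111 rows are not members, and 108 of them were listed at exactly 0 in every cell. Since the members were selected on FPKM in the same 6 cells, how many members a cell held and what share of its FPKM they took are given as descriptions, with no test.

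The mice are named 1157, 1168 and PDGF1. From each came 1 circulating tumor cell (CTC), a cell that has left a tumor and travels in blood, and 1 tumor cell, whose sample title carries the letters GBM. The CTC group (3 cells) was compared with the tumor cell group (3 cells), and the mouse is the replicate. The series describes all 6 as single cells, although among the source labels only those of the CTCs use that term. Strain, genotype, age and treatment of the mice, and how the cells were picked, are not stated in the labels. Per the labels' protocols, mRNA was amplified linearly through repeated rounds of copying into cDNA and back into RNA, and libraries were made with a stranded mRNA kit.

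Small nucleolar RNAs guide the chemical modification of other RNAs. Box C/D RNAs, named Snord, carry the motifs called C box and D box and direct methylation of ribose by fibrillarin, while box H/ACA RNAs, named Snora, end in an ACA motif and direct the change of uridine to pseudouridine by dyskerin. Most targets lie in ribosomal RNA, a few of these RNAs are needed for the cutting of precursor ribosomal RNA instead, and Cajal body RNAs, named Scarna, act on the RNAs of the spliceosome. In mammals most of them lie in introns of host genes, often genes of ribosomal proteins or noncoding genes of the Snhg family, and the mature RNA carries no poly(A) tail.

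The sequences of 7 members are shown because they hold the highest values in the cells (Snora73b, Snora2b, Snora17, Snord17, Snora24) or show the other kinds of RNA in the set (Snord118, Scarna8). They were read from the GENCODE mouse release 21 transcripts, on GRCm38, in the sense of the RNA. Capitals mark the ACA box of the Snora and Scarna8 sequences and the C box TGATGA and D box CTGA of the Snord sequences.
Snora2b: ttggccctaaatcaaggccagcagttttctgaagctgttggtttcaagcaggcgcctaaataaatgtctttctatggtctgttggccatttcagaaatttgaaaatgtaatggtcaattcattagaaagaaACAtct
Snora73b: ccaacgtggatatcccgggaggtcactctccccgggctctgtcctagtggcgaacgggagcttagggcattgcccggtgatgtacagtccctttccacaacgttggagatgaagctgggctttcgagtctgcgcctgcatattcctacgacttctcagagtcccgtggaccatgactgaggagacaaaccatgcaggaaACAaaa
Snora24: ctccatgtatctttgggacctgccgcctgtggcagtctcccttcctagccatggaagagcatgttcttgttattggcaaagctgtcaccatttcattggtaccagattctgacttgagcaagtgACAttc
Snora17: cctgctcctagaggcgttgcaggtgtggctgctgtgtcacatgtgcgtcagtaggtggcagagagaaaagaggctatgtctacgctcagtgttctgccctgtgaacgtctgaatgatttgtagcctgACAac
Snord17: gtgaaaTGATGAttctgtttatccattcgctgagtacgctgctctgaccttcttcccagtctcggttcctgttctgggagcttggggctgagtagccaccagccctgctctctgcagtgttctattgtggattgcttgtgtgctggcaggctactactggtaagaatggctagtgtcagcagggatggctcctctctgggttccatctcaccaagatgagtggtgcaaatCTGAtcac
Snord118: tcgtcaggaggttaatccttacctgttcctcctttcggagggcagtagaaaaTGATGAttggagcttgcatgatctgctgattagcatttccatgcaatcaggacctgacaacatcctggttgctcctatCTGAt
Scarna8: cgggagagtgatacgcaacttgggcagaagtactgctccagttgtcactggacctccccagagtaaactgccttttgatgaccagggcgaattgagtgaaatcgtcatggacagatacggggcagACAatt

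Snora2b lies at chr15:98526346-98526482 on the minus strand and overlaps an annotated exon of a retained-intron transcript of Kansl2. Snora73b lies at chr4:132352322-132352526 on the minus strand within Snhg3 and Rcc1, with an exon of Gm17300 on the opposite strand. Snora24 lies at chr3:123507937-123508066 on the minus strand and overlaps an exon of a retained-intron transcript of Snhg8. Snora17 lies at chr2:26639190-26639321 on the minus strand in no other annotated gene. Snord17 lies at chr2:144265979-144266216 on the minus strand in an intron of Snx5. Snord118 lies at chr11:69073427-69073561 on the plus strand in no other gene. Scarna8 lies at chr4:86586453-86586583 on the minus strand within Haus6. All coordinates are from GRCm38. Of the 18 members, 14 lie within a gene of the same strand, and 9 of these overlap one of its annotated exons, so that fragments of the host transcript can fall on them. The table holds 1 value per gene, and whether a value came from the mature small RNA or from host RNA was not tested.

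An ACA triplet lay 2 to 4 bases from the 3′ end of the annotated transcript in all 13 Snora members and in Scarna8. The same triplet was found there in 60.3% of 902 annotated small nucleolar and Cajal body RNA genes of the members' lengths, and in 10.6% of 604 small nuclear RNA and miRNA genes of those lengths. A C box TGATGA anywhere with a D box CTGA in the last 20 bases was found in Snord17, Snord118 and Scarna2, and in 1.996% of the 902 genes. Snord22 had the D box letters without those of the C box. The members' median GC content was 51.6% (range 38.0% to 64.0%), beside 46.7% in the 31 rows of those lengths that are not members.

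Every row with a value was comparatively long. Members were 121 to 414 nt long, with a median of 134.5 nt, in the 126 of 129 rows whose symbol matched the annotation. None of the 77 rows shorter than 121 nt had a value above 0 in any cell, whereas 18 of the 49 rows of 121 nt or more (36.7%) were members. Box C/D genes were the short ones, with a median of 78.5 nt and 5 of 80 at 121 nt or more, against medians of 132 nt for Snora and 140 nt for Scarna genes. The 3 Snord members, at 126, 135 and 238 nt, were therefore drawn from 5 rows.

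Up to 140 nt, the share of rows that reached 1 FPKM also rose with length in other short RNA classes of the annotation. Among 1350 small nucleolar and Cajal body RNA genes with other symbols, 0 of 370 of up to 100 nt, 10 of 128 of 101 to 120 nt and 117 of 758 of 121 to 140 nt (15.4%) reached 1 FPKM. Among miRNA genes the counts were 4 of 1191, 35 of 462 and 55 of 211 in those bins, and among small nuclear RNA genes 3 of 216, 95 of 859 and 11 of 54. In the 121 to 140 nt bin the Snora, Snord and Scarna rows stood at 13 of 35 (37.1%). Longer bins held fewer genes and did not rise alike. At 141 to 200 nt the counts were 22 of 79 other small nucleolar genes, 3 of 14 miRNA genes and 57 of 250 small nuclear RNA genes. The Snora, Snord and Scarna rows stood there at 2 of 7. Over 200 nt, 2 of 15 other small nucleolar genes, 0 of 5 miRNA genes and 3 of 7 Snora, Snord and Scarna rows reached 1 FPKM.

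**Figure D1:**
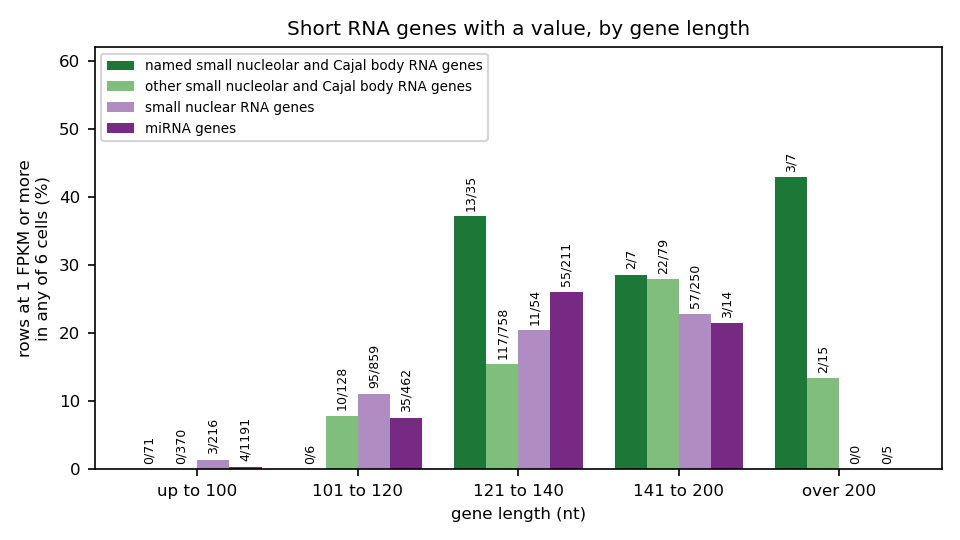
Share of rows (%) reaching 1 FPKM in any of the 6 cells by gene length (nt) for 4 classes of short RNA genes, with the counts above each bar. The named small nucleolar and Cajal body RNA genes have no row with a value up to 120 nt and 13 of 35 rows in the 121 to 140 nt bin.

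The smallest values in the table gave the scale of 1 sequenced fragment. Genes with 1 exon and equal length often shared exactly the same low FPKM within a cell, and a curve over length was fitted to the lowest shared values. The most frequent value within 8% of the curve was taken as the FPKM of 1 fragment at that length. Values off the line through neighbouring lengths were dropped. Where no value was left, the FPKM of 1 fragment was interpolated, as for every fragment number of Snora73b (205 nt) and Snord17 (238 nt). At 130 nt it was 9.69, 13.0 and 7.85 FPKM in the CTCs, in the order of mice 1157, 1168 and PDGF1 that is kept throughout, and 10.7, 6.35 and 7.08 FPKM in the tumor cells of the same mice. At 205 nt it was 1.07, 0.968 and 0.684 FPKM in the CTCs and 1.97, 0.494 and 0.647 FPKM in the tumor cells. The threshold of 1 FPKM was therefore passed by a single fragment in every cell for a gene of 130 nt. Over 1-exon genes of 120 to 450 nt that are not members and had under 10 fragments, those that set the scale included, 89.5% to 92.0% of values were within 0.03 of a whole number of fragments. By the step at 900 nt, the depth of the tumor cell of mouse 1157 was the lowest, and the other 5 cells were 2.41 to 5.07 times as deep.

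Most member values were single fragments or a few. Of 108 values (18 members in 6 cells), 78 were exactly 0 and 29 were above 0.001 FPKM, with 1 more at 2.86e-114 FPKM. Of the 29, 11 stood at 1 fragment and 4 at 2 fragments, 21 were at 3 or fewer and 8 above 3. Just inside the threshold were Snora70, whose highest value was 5.39 FPKM, Snora64 at 2.08 FPKM and Scarna2 at 1.73 FPKM. Just outside were Scarna10, whose highest value was 0.289 FPKM, Snora81 at 2.89e-47 FPKM and Snora73a at 3.27e-114 FPKM.

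**Figure D2:**
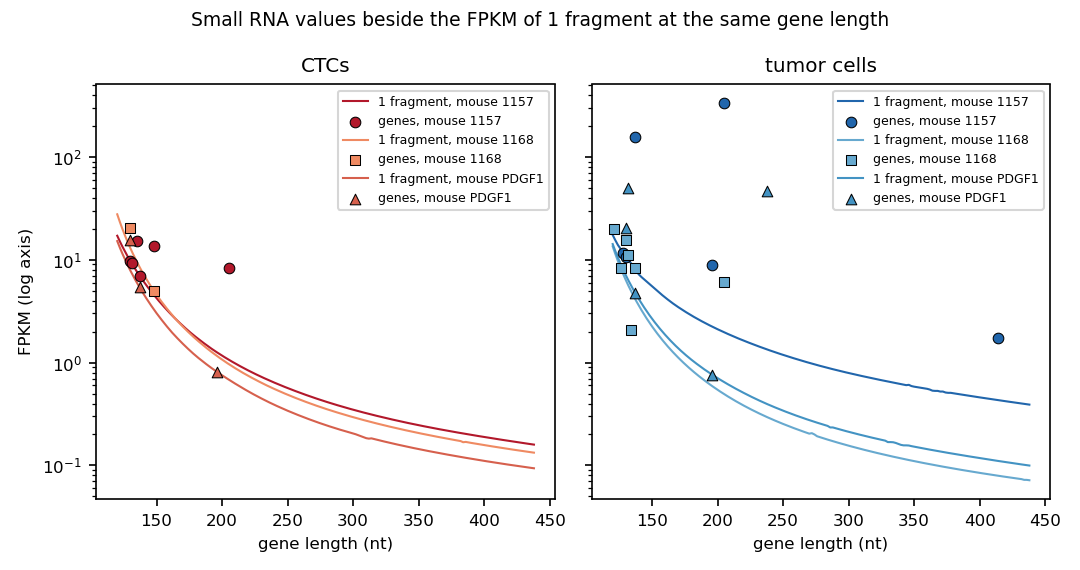
Each point is 1 small RNA in 1 cell (FPKM, log axis, against gene length in nt), for CTCs on the left and tumor cells on the right, and each line is the FPKM of 1 fragment at that length in the cell of the same mouse. Most points lie on or just above their line, and the 4 points at more than 10 fragments are Snora73b and Snora2b in the tumor cell of mouse 1157, Snora73b in that of mouse 1168 and Snord17 in that of mouse PDGF1.

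The CTCs held 6, 2 and 2 members at 1 FPKM or more, and the tumor cells 6, 7 and 4 (mice 1157, 1168 and PDGF1). The means were 3.33 ± 2.31 in CTCs and 5.67 ± 1.53 in tumor cells (SD, n = 3 each), and the ranges overlap. The difference of -2.33 was -3.67 without the CTC of mouse 1157, -3.5 without both cells of mouse 1157 and -1 without both cells of mouse 1168. At 2 fragments or more the CTCs held 3, 0 and 1 members and the tumor cells 4, 4 and 3. The highest CTC, at 3, equalled the lowest tumor cell. Over the members that overlap no same-strand exon, the difference between the group means was -0.333, against -2.33 over all members. Rows of any kind at 1 FPKM or more numbered 2870, 9702 and 1486 in the CTCs. In the tumor cells they numbered 4078, 11239 and 3025, more than in the CTC of the same mouse each time. Among the tumor cells the member counts had the same order of mice as these numbers, and among the CTCs they did not. The CTC of mouse 1168, with 9702 rows, held 2 members, as did the CTC of mouse PDGF1, with 1486 rows. Both cells of mouse 1157 held 6. The part of the number of rows in the member counts was not tested.

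The members' share of all FPKM was 0.0267%, 0.00346% and 0.0466% in the CTCs and 0.648%, 0.0116% and 0.240% in the tumor cells. The tumor cell was higher than the CTC in each mouse, while the CTC of mouse PDGF1 was above the tumor cell of mouse 1168. Group means were 0.0256% ± 0.0216 in CTCs and 0.2999% ± 0.322 in tumor cells (SD, n = 3 each), and the SD of the tumor cells exceeded their mean. The difference of -0.274 percentage points was -0.100 without the tumor cell of mouse 1157, -0.101 without both cells of mouse 1157 and -0.418 without the tumor cell of mouse 1168. It was -1.36 when only members and named protein-coding genes made up the total. The fragments behind these shares were 15.8, 2.56 and 3.999 in the CTCs, and 197, 21.8 and 131 in the tumor cells. Snora73b alone gave 168 of the 197 in mouse 1157 and Snord17 alone 118 of the 131 in mouse PDGF1. Small nucleolar genes with other symbols took 0.246%, 0.0490% and 1.96% of FPKM in the CTCs and 0.549%, 0.103% and 1.75% in the tumor cells. In mouse PDGF1 the CTC was thus the higher of the pair in that class. Small nuclear RNA genes took 1.75%, 0.411% and 7.93% in the CTCs and 43.9%, 6.12% and 2.96% in the tumor cells. For miRNA genes the shares were 31.7%, 3.52% and 1.72% in the CTCs and 3.73%, 11.0% and 2.16% in the tumor cells. These classes are part of the same total, and their effect on the members' share was not tested.

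The members were also counted by the number of cells in which they were seen. Snora24 was at 1 FPKM or more in 4 cells, 2 members in 3 cells, 2 in 2 cells and 13 in 1 cell. Of all rows, 16193 reached that level in at least 1 cell and 4165 in at least 3, beside 18 and 3 of the members. No recurrence particular to the members is read from these numbers. The members seen at that level in CTCs and in no tumor cell were 6, and those in tumor cells and in no CTC were 10. No such split was counted over all rows, so nothing is read from these 2 counts. Snora73b and Snora24 were seen in both groups. Within each mouse the CTC and the tumor cell shared 1 member, Snora73b in mouse 1157 and Snora24 in mice 1168 and PDGF1.

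**Figure D3:**
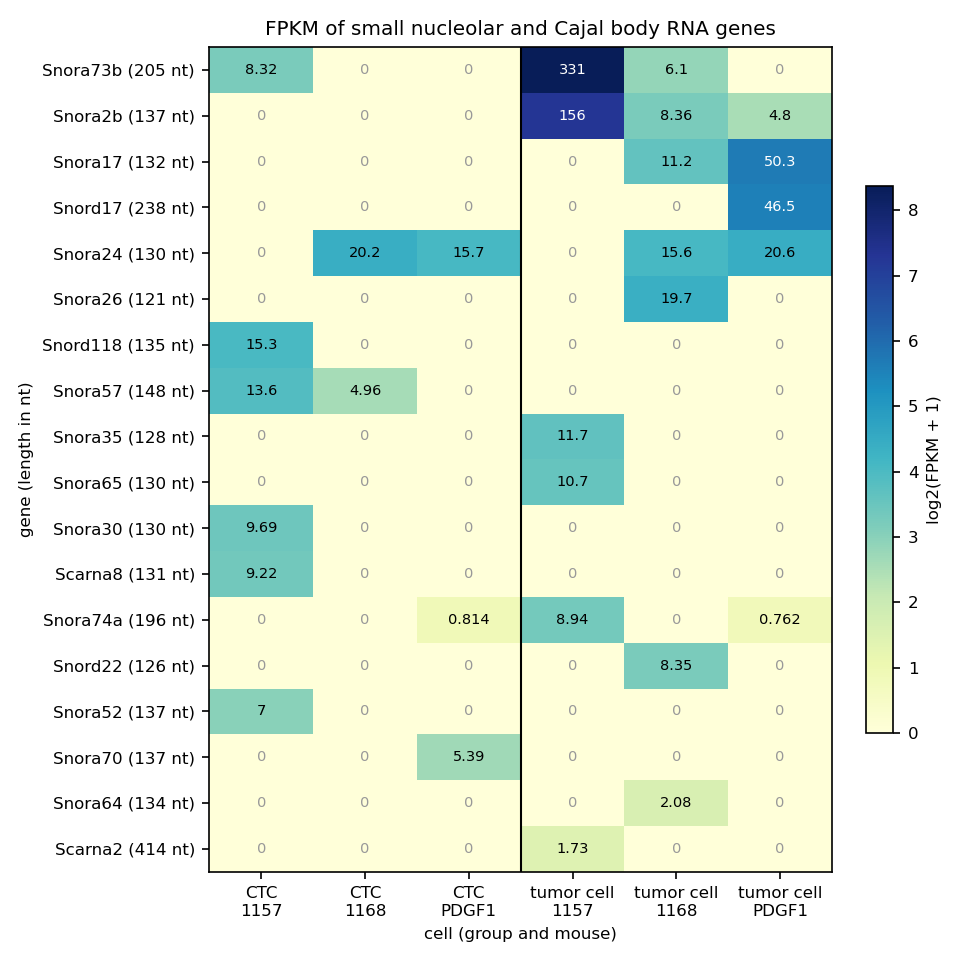
FPKM of the 18 small RNA genes (rows, with gene length in nt) in the 3 CTCs (left of the line) and the 3 tumor cells (right), with colour on the log2(FPKM + 1) scale and values under 0.001 printed as 0. Most of the grid is at 0, and the highest values are in the tumor cell of mouse 1157, where Snora73b stood at 331 FPKM and Snora2b at 156 FPKM.

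Some members act in the cutting of precursor ribosomal RNA rather than its modification. Snora73b is a mouse gene of U17, a box H/ACA RNA needed for processing of the small-subunit ribosomal RNA. It had 8.32, 2.86e-114 and 0 FPKM in the CTCs, against 331, 6.10 and 0 FPKM in the tumor cells of mice 1157, 1168 and PDGF1. In fragments this was 7.79 in the CTC of mouse 1157, 168 in its tumor cell and 12.3 in the tumor cell of mouse 1168. The groups overlap, since the CTC of mouse 1157 lay above the tumor cells of mice 1168 and PDGF1. Snora73a, a copy with 98.0% identical bases, was listed at 0 in 5 cells and in the tumor cell of mouse 1157 at 3.27e-114 FPKM. How fragments that match both copies were assigned is not recorded in the labels, so the value of either copy is uncertain.

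Snord118, the U8 RNA, is a box C/D RNA needed for maturation of the large-subunit ribosomal RNA, and its gene is mutated in a human disease of brain white matter. It had 15.3 FPKM in the CTC of mouse 1157, which is 2 fragments, and was at 0 in the other 5 cells. Gm24208, an annotated copy with 96.2% identity, had 47.9 FPKM in the tumor cell of mouse PDGF1 and 0 elsewhere, and fragments that match both genes cannot be told apart in the table. Snord22, the U22 RNA, is a box C/D RNA shown in frog oocytes to act in processing of the small-subunit ribosomal RNA. It had 8.35 FPKM, 1 fragment, in the tumor cell of mouse 1168 and 0 in the other cells.

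Among the box H/ACA guides, Snora2b was at 0 in all 3 CTCs, against 156, 8.36 and 4.80 FPKM in the tumor cells of mice 1157, 1168 and PDGF1. In fragments the tumor cells held 19.4, 2 and 1. No CTC reached any tumor cell, but with 3 fragments as the limit that a count of 0 allows, the CTC values could be as high as 21.01, 25.5 and 16.2 FPKM. These limits, which cover counting error only, lie above the values of the tumor cells of mice 1168 and PDGF1, so the difference was not detectable at this depth in those mice. Against the tumor cell of mouse 1157 they lie below its 156 FPKM.

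Snora24 guides a pseudouridine in small-subunit ribosomal RNA in human cells. It had 0, 20.2 and 15.7 FPKM in the CTCs, against 0, 15.6 and 20.6 FPKM in the tumor cells. Both cells of mice 1168 and PDGF1 held it and both cells of mouse 1157 were at 0, and the groups overlap. The values correspond to 1.56 and 2 fragments in the CTCs from mice 1168 and PDGF1 and to 2.47 and 2.90 fragments in their tumor cells, and 3 of these 4 are not whole. A count of 0 allows up to 29.1 FPKM in the CTC and 32.1 FPKM in the tumor cell of mouse 1157, both above every observed value.

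Snora17 was at 0 in the CTCs and in the tumor cell of mouse 1157, against 11.2 FPKM (2 fragments) and 50.3 FPKM (8 fragments) in the tumor cells of mice 1168 and PDGF1. Snora57 went the other way, with 13.6, 4.96 and 0 FPKM in the CTCs (3, 1 and 0 fragments) and 0 in all tumor cells. Its limits at a count of 0 were 17.5, 7.35 and 8.69 FPKM in the tumor cells of mice 1157, 1168 and PDGF1. Snora57 lies on chromosome 19 opposite Lbhd1, and its copy Gm26132, with 95.9% identity, had 4.54 FPKM in the CTC of mouse 1157. Snora74a, a gene of the U19 RNA, had 0, 0 and 0.814 FPKM in the CTCs and 8.94, 0 and 0.762 FPKM in the tumor cells. These are 1 fragment in the CTC of mouse PDGF1, and 4 and 1 fragments in the tumor cells of mice 1157 and PDGF1.

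The remaining box H/ACA members were seen in 1 cell each. Snora30 at 9.69 FPKM and Snora52 at 7.003 FPKM were seen in the CTC of mouse 1157, and Snora70 at 5.39 FPKM in the CTC of mouse PDGF1, each at 1 fragment. Snora35 at 11.7 FPKM and Snora65 at 10.7 FPKM came from the tumor cell of mouse 1157, again at 1 fragment each. Snora26 at 19.7 FPKM (1.60 fragments) and Snora64 at 2.08 FPKM (0.420 of a fragment) were seen in the tumor cell of mouse 1168. The value of Snora64 was the only one below 1 fragment. Copies with at least 95% identity exist for Snora26 (1 gene), Snora30 (1 gene) and Snora65 (3 genes), and the closest copy of each was at 0 in all cells.

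Among the box C/D guides, Snord17 had 46.5 FPKM in the tumor cell of mouse PDGF1, which is 118 fragments, and was at 0 in the other 5 cells. At 238 nt its limit at a count of 0 was 1.96, 1.70 and 1.20 FPKM in the CTCs, and 4.02 and 0.883 FPKM in the tumor cells of mice 1157 and 1168. The value of the tumor cell of mouse PDGF1 lay above all 5 limits, and no annotated copy with 95% identity or more was found.

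Both Cajal body RNAs act on the U2 RNA of the spliceosome. Scarna8, a box H/ACA type guide, had 9.22 FPKM (1 fragment) in the CTC of mouse 1157 and 0 in the other cells. Scarna2, a box C/D type guide with a gene of its own on chromosome 3, had 1.73 FPKM in the tumor cell of mouse 1157, which is 4 fragments over 414 nt, and 0 in the other cells.

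The test of CTC against tumor cell was limma on log2(FPKM + 1) over the 4165 rows that reached 1 FPKM in 3 or more cells, with differences given as CTC minus tumor cell. It called 0 of 4165 rows (0%) at an adjusted p of 0.05, and 7 rows had an unadjusted p under 0.05. Only 3 members, Snora73b, Snora2b and Snora24, passed the filter, and 0 of them were called. The log2 difference was -4.35 (SE 2.12) for Snora2b, -2.66 (SE 2.35) for Snora73b and -0.0065 (SE 2.77) for Snora24, each with a limma adjusted p of 0.99994. Without the tumor cell of mouse 1157 the difference of Snora73b was -0.34 and that of Snora2b -2.88. Snora2b passed the filter through its 3 tumor cells alone, with every CTC at 0, so its groups could not overlap. Every CTC lay below every tumor cell in 54 of 4165 rows (1.3%), and nothing is read from its place among them.

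A fit with the mouse as a block called 1 of 4165 rows (0.024%), and that row was Snora2b, with a limma log2 difference of -4.35, SE 0.918 and adjusted p 0.00906. Since the row entered through its tumor cells alone, with every CTC at 0, the sign of the difference was fixed by how it passed the filter in this fit too, and the call is given as a description that supports no difference between the groups. On the log2(FPKM + 1) scale the CTC minus tumor cell difference was -7.30, -3.23 and -2.54 in mice 1157, 1168 and PDGF1, where a negative sign in 3 of 3 mice follows from the CTCs at 0. Its own SD over the mice was 2.57, an SE of 1.48, which is above the SE of 0.918 that limma took from the trend over all genes. An exact paired test of signs over 3 mice cannot give a two-sided p below 0.25. Without mouse 1157 the blocked limma gave -2.88 with adjusted p 0.357, and without mouse 1168 -4.92 with adjusted p 0.919. Snora2b thus rested on 19.4, 2 and 1 fragments in the tumor cells and on mice 1157 and 1168 for its call. Snora73b had a limma adjusted p of 0.697 with the block.

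When rows at 1 FPKM in at least 1 cell entered the blocked fit, all 18 members were among the 16193 rows, limma called 0 rows and the smallest adjusted p was 0.786. In that fit 225 rows had an unadjusted p under 0.05. Of the 18 members 6 were higher and 12 lower in CTCs, with a median log2 difference of -0.81, beside 6848 higher and 9345 lower rows and a median of -0.15 over all 16193. The 6 members that reached 1 FPKM in CTCs alone and the 10 that did so in tumor cells alone took the sign of that group, so these counts support nothing. Snora17, which entered through tumor cells alone, had a log2 difference of -3.10 and Snora57, which entered through CTCs alone, of 2.15.

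The members seen in a cell were often not those whose host genes were highest there. Both cells of mouse 1168 had high levels of ribosomal protein hosts, with the small RNA at 0 in all but 1 case. The exception was Snora64, which the tumor cell of mouse 1168 held at 2.08 FPKM, and whose host Rps2 had 333, 2758 and 5.68 FPKM in the CTCs and 9.45, 2108 and 29.8 FPKM in the tumor cells. Rplp2, host of Snora52, had 314, 4514 and 5.03 FPKM in the CTCs and 8.80, 3304 and 47.5 FPKM in the tumor cells, while Snora52 was seen in the CTC of mouse 1157 alone. Rpl12, host of Snora65, had 759, 1916 and 10.7 FPKM in the CTCs and 6.98, 2206 and 21.5 FPKM in the tumor cells, while Snora65 was seen in the tumor cell of mouse 1157, where Rpl12 was lowest. Rpl10, host of Snora70, had 35.2, 445 and 0.921 FPKM in the CTCs and 0.450, 275 and 8.05 FPKM in the tumor cells, while Snora70 was seen in the CTC of mouse PDGF1. A count of 0 allows up to 25.5 FPKM for Snora52 and 38.9 FPKM for Snora65 in the CTC of mouse 1168.

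The hosts of Snora2b, Snora73b and Snord17 were not at their highest in the cell where the member was highest, whereas those of Snora35 and Snora26 were. Kansl2, host of Snora2b and a subunit of a histone acetyltransferase complex, had 0.138, 1.55 and 0.0121 FPKM in the CTCs and 0.271, 4.39 and 0.0229 FPKM in the tumor cells, so the 156 FPKM of Snora2b stood in a cell with 0.271 FPKM of Kansl2. Snhg3, a noncoding host of Snora73b, had 0.393, 67.9 and 0.296 FPKM in the CTCs and 0.647, 108 and 5.00 FPKM in the tumor cells, and was highest in mouse 1168 while Snora73b was highest in mouse 1157. Snx5, a sorting nexin and host of Snord17, had 0.306, 53.5 and 0.192 FPKM in the CTCs and 0.954, 41.1 and 1.06 FPKM in the tumor cells. Htr2c, the serotonin receptor gene that holds Snora35 in an intron, had 0.446, 0 and 0.199 FPKM in the CTCs and 2.06, 0.108 and 0.0866 FPKM in the tumor cells, and its highest cell was the one with Snora35. Snhg8, host of Snora24, had 2.55, 345 and 0.271 FPKM in the CTCs and 0.375, 171 and 15.0 FPKM in the tumor cells, so Snora24 was seen both in the CTC of mouse 1168, where Snhg8 was highest, and in the CTC of mouse PDGF1, where it was lowest. Dancr, a noncoding host of Snora26, had 0.282, 1.77 and 0 FPKM in the CTCs and 0, 6.72 and 3.31 FPKM in the tumor cells, and its highest cell was the one with Snora26.

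Hosts were measured for members and for rows that are not members. Of the 15 hosts of members, 6, 11 and 3 were at 1 FPKM or more in the CTCs, and 7, 12 and 9 in the tumor cells. Of the 73 hosts of rows that are not members, 36, 66 and 20 were at 1 FPKM or more in the CTCs and 35, 69 and 39 in the tumor cells. In both sets the cells of mouse 1168 led, and of these the CTC was among the cells with the fewest members (2) while the tumor cell held the most (7).

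**Figure D4:**
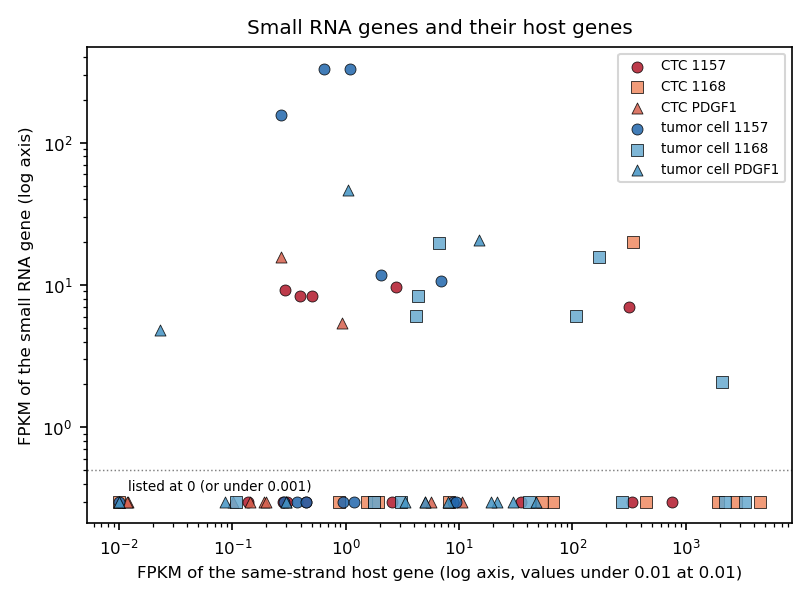
Each point is 1 member in 1 cell, placed by the FPKM of its same-strand host gene (log axis, values under 0.01 drawn at 0.01) and its own FPKM (log axis, values at 0 drawn below the dotted line). Snora73b has 2 hosts and is drawn once for each, and Snora74a is not drawn because its hosts are unnamed predicted genes. Also not drawn are Snora17, Snord118, Snora57 and Scarna2, which have no same-strand host, and Snord22, whose host Snhg1 is not among the rows used. Of the points with a host above 1000 FPKM, only that of Snora64 in the tumor cell of mouse 1168 lies above 0.

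The proteins that bind these RNAs were measured alongside. Of the 4 box C/D core proteins, 3 were tested, 1 with a positive and 2 with a negative difference, and of the 4 box H/ACA core proteins, 2 were tested, both positive. The median log2 difference was -0.50 in the first and 0.38 in the second list, beside -0.06 over all 4165 rows tested, and limma called none of either. Fbl, the methylase fibrillarin, had 0.230, 48.3 and 0.0240 FPKM in the CTCs and 0.275, 27.7 and 0.0251 FPKM in the tumor cells. Dkc1, the pseudouridine synthase dyskerin, had 1.82, 32.2 and 0.0977 FPKM in the CTCs and 0.517, 14.9 and 3.19 FPKM in the tumor cells. For both, the cells of mouse 1168 were the highest of the 6, and the groups overlap.

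The other core proteins had the same order of mice in the CTCs. Nop56 had 1.99, 149 and 0.424 FPKM in the CTCs and 1.05, 36.4 and 22.8 FPKM in the tumor cells, and Nop58 had 0.648, 189 and 0.322 FPKM in the CTCs and 0.463, 30.9 and 7.43 FPKM in the tumor cells. The protein that binds the kink turn of box C/D RNAs, listed as Nhp2l1, had 0.126, 62.1 and 0.0692 FPKM in the CTCs and 0.317, 53.8 and 3.76 FPKM in the tumor cells. In the H/ACA particle, Gar1 had 1.06, 183 and 0.298 FPKM in the CTCs and 0.849, 49.2 and 0.109 FPKM in the tumor cells. Nhp2 had 0.296, 213 and 0.218 FPKM in the CTCs and 0.638, 77.0 and 0.156 FPKM in the tumor cells, and Nop10 had 0.121, 47.5 and 0 FPKM in the CTCs and 0.193, 52.6 and 0.0795 FPKM in the tumor cells. Mouse 1168 was the highest of each group for every core protein, and its CTC held 2 members and its tumor cell 7.

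**Figure D5:**
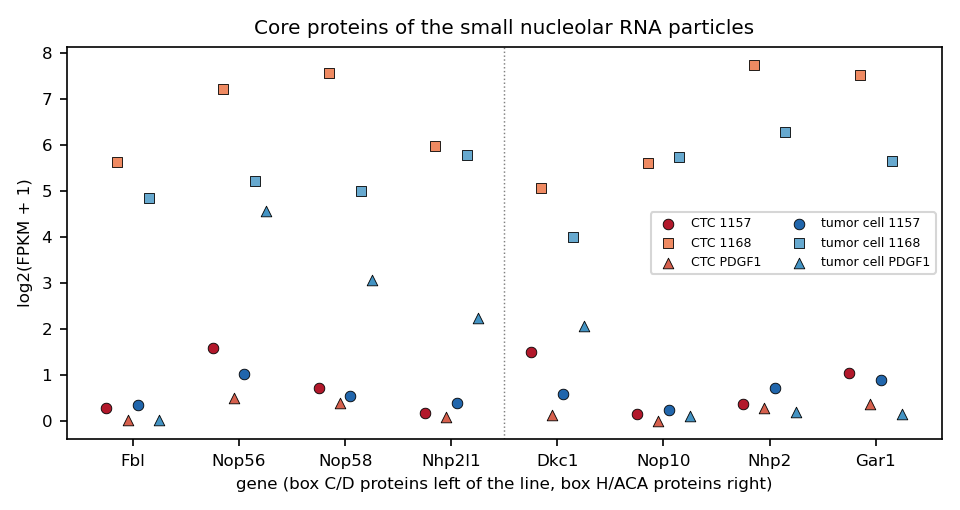
Log2(FPKM + 1) of the 8 core proteins of the small nucleolar RNA particles in each CTC (red, left of each gene's position) and tumor cell (blue, right), with 1 point per cell and a marker shape per mouse. Both cells of mouse 1168 (squares) lie at the top for all 8 genes, and the groups overlap in each.

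Other genes of the pathway gave no call either. Of 16 assembly and Cajal body proteins in the table, 5 were tested, 2 positive and 3 negative with a median log2 difference of -0.04. Tgs1, which adds a trimethyl cap to small RNAs, had 0.158, 22.5 and 0.0882 FPKM in the CTCs and 22.1, 6.79 and 0.834 FPKM in the tumor cells. Of 23 noncoding and imprinted host genes in the table, 14 were tested, 9 positive and 5 negative with a median of 0.23. Gas5, a host of several box C/D RNAs, had 1800, 3072 and 2.51 FPKM in the CTCs and 9.95, 1160 and 110 FPKM in the tumor cells. Of 27 proteins of ribosomal RNA synthesis and processing, 11 were tested, 6 positive and 5 negative with a median below 0.01. Polr1a, the largest subunit of RNA polymerase I, had 9.57, 5.30 and 0.749 FPKM in the CTCs and 0.144, 1.05 and 0.0112 FPKM in the tumor cells.

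The identity of the cells rests on the labels. Of 9 glioma and oligodendrocyte progenitor genes, 4, 8 and 0 were at 1 FPKM or more in the CTCs and 3, 7 and 0 in the tumor cells, so neither cell of mouse PDGF1 showed these markers. Of 6 leukocyte genes, 2, 2 and 1 were at that level in the CTCs and 4, 5 and 2 in the tumor cells, with summed levels of 3.10 to 204 FPKM in CTCs and 9.41 to 1802 FPKM in tumor cells. All 5 erythroid genes were below 1 FPKM in every cell, with sums of at most 0.182 FPKM. Of 4 platelet genes, 0, 1 and 0 were at 1 FPKM or more in the CTCs and 1, 1 and 0 in the tumor cells, with sums of 0.991, 68.1 and 0.335 FPKM in the CTCs and 1.55, 6.19 and 0.0762 FPKM in the tumor cells. The platelet gene at that level was Itga2b each time, with 68.0 FPKM in the CTC of mouse 1168. Pf4, Ppbp and Gp9 were below 1 FPKM in every cell. Of 3 endothelial genes, none was at that level in the CTCs and 1, 1 and 0 were in the tumor cells, with sums of at most 0.727 FPKM in the CTCs and 5.16 FPKM in the tumor cells. The part of RNA from leukocytes, platelets or endothelium in the member values was not tested.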

How the data were processed

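RNA sequencing of 3 CTCs and 3 tumor cells was used as the FPKM table deposited by the authors. STAR 2.4.2a, Cufflinks 2.2.1 and GRCm38 are named in the submitters' processing notes. The treatment of multi-mapped reads and of strand in counting is not stated in the labels. Of 45038 rows, 44804 remained after 27 date-like and 207 repeated symbols were left out.

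Symbols were matched to GENCODE mouse release 21 on GRCm38 for coordinates, hosts and sequences. BLAST+ 2.17.0 found copies. The FPKM of 1 fragment came from a curve through the lowest values shared by 1-exon genes of equal length. It was the value of 1-exon genes near that curve, or was interpolated between neighbouring lengths. limma 3.58.1 in R 4.3.3 was run on log2(FPKM + 1) with a variance trend, a filter of 1 FPKM in at least 3 of 6 cells, two-sided, with Benjamini-Hochberg adjustment over all rows, and was tested on simulated data. Python 3.11.15 did the rest.

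The members and lists were chosen with earlier results of these data known. Named genes were the tested members, those highest per cell, Scarna members, threshold neighbours, Snora2b, their hosts, core proteins and the leading genes of each list, and the other members were added to account for all 18. Cells of 1 mouse are paired by the labels. With group means removed, they correlated across genes at 0.178, 0.689 and 0.428 in mice 1157, 1168 and PDGF1, and the CTC of mouse PDGF1 correlated at 0.422 with the tumor cell of mouse 1157, so the pairing rests on the labels. Fragments are amplified copies without molecular identifiers, so limits cover counting error only.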

Additional observations from a re-analysis of the deposited data

How the results depend on the processing

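Without the replicate block, limma called 0 of the rows tested, and 0 members, under each other pseudocount, filter, scaling and omission tried. With the block it called 1 row, the member Snora2b, and 0 rows with the wider filter and with quantile normalization. Alternatives added after seeing the data gave 0 rows with the block and without mouse 1157 or without mouse 1168, 2 rows with the block and a pseudocount of 0.1, 1 of them a member (log2 difference -7.54, adjusted p 0.000139, the other being Gm27355, named after its values were seen), and 1 row, Snora2b again, with the block and without mouse PDGF1 (-5.26, adjusted p 0.01199). The pairing changed no other member's call. Snora24 changed sign, to 0.24 with quantile normalization (with or without the block), 0.20 after rescaling to protein-coding genes and 0.17 without mouse PDGF1 (with or without the block), and ranged from -1.42 to 1.40 with 1 cell left out. Snora73b and Snora2b had a negative difference in every alternative tried. With 1 cell left out it ran from -4.53 to -0.34 for Snora73b and from -5.26 to -2.88 for Snora2b. For Snora2b the sign follows from every CTC at 0 and every tumor cell above 0, so its constancy supports nothing. For Snora73b both cells of mouse PDGF1 were at 0 and the alternatives reuse the same 6 cells, so its constancy supports nothing either. The difference in member number was -0.333 without members that overlap a host exon, and the difference in share was -1.36 percentage points when only members and named protein-coding genes made up the total. Rescaling moved the median of all rows to -0.98. The cause of these moves was not tested. For members of about 130 nt, 1 fragment alone passes 1 FPKM in every cell, so reaching that threshold can rest on a single fragment.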
